A study of Bos taurus with 12 samples.

Results

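The region described here is a stretch of bovine chromosome 21, in which sperm DNA methylation was compared between bulls of a low BFI and a high BFI group. Every tile on chromosome 21 that the authors' deposited table lists with a start from 32.5 to 33.5 Mb was taken as a member, which gave 248 of the 7290 listed tiles. Each tile is a window of 500 bp, and the next possible start is 100 bp on, so neighbouring tiles share most of their cytosines. The stretch was chosen by its listed p-values, since it holds a run of tiles with a listed p of 0. The differences and p-values of the members are therefore a description and were not tested.

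The study profiled sperm of Bos taurus by enzymatic methylation sequencing, which converts unmethylated cytosines with enzymes in place of bisulfite. Its 12 samples fall into 2 groups of 6, and all are labelled as male sperm cells. The labels do not say what BFI stands for, and age, breed, treatment and the number of bulls behind each group are not given in the sources used here. The table holds only the comparison of the groups, with no level, read count or depth for any sample, so the spread between bulls cannot be given and the labelled cell type was not checked. Which group was subtracted from which is not stated, and signs are reported as deposited, in percentage points. Positions are those of the table, whose builds are named as ARS-UCD1.2 and bosTau9 in the submitters' processing notes.

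CpG islands are short stretches rich in CpG dinucleotides, often found at gene starts, and most of them carry little methylation in sperm. Ribosomal RNA genes supply the RNA core of the ribosome and exist in many near-identical copies, which can be active or silent and differ in methylation. Reads from such copies can be placed on one another, so values at rRNA genes are reported as uncertain. Whether that happened here was not tested.

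The right-hand end of the block holds a pair of 119-bp exons that match rRNA genes in length and spacing. The largest negative difference, -17.0 percentage points by the authors' deposited table, lay at the second of them. All tiles with a listed p of 0 lay on the CpG islands that contain the pair. The left-hand edge also had large negative differences, to -13.3 percentage points, beyond the -9.86 reached at the first exon of the pair, by the authors' deposited table. All 59 tiles that overlap one of 4 islands had a negative difference and a q under 0.05, and the 2 steepest changes between tiles 100 bp apart in the whole table lay at one of the exons. Between those places, differences were mostly small and of both signs.

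The 248 tiles ran from 32905601 to 33029400, a block of 123.8 kb, although the rule allowed 1 Mb. They make up 248 of the 414 tiles listed on chromosome 21 and 2.48% of the 10000 grid positions of the window. The nearest listed tile before the block ended 1322200 bp away and had -0.336 percentage points by the authors' deposited table. The nearest after it began 2275200 bp away, at 0.551 percentage points in the same deposited table. Both were small beside the outermost tiles of the block, listed at -9.29 and -11.7 percentage points by the authors' deposited table. Tiles within 1000 bp of one another formed 11 loci of 600 to 15900 bp, which covered 39100 bp in all. The widest gap between loci measured 43700 bp.

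A tile was counted as differing where its deposited q was under 0.05 and its difference at least 10 percentage points. In the window 15 of 248 tiles were counted (6.05%), against 2.78% of all listed tiles. All 15 were negative, as were 192 of the 203 tiles counted in the whole table (2.63% of all listed tiles). They lay in 3 loci, with 5 tiles in each. At any difference, 194 tiles had a q under 0.05, or 78.2% against 71.8% of all listed tiles. Among the 248 members, 126 were negative and 68 positive with such a q. In the whole table these were 4074 and 1162 of 7290 tiles (55.9% and 15.9%). Per listed tile, such negative tiles were thus rarer in the window than in the table, and positive ones more frequent. The share of negative members was 62.1%, against 71.6% in the whole table. The median size of a difference was 1.58 percentage points in the window and 1.48 in the whole table. By median size the members were close to other listed tiles, while the share counted was higher.

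**Figure D1:**
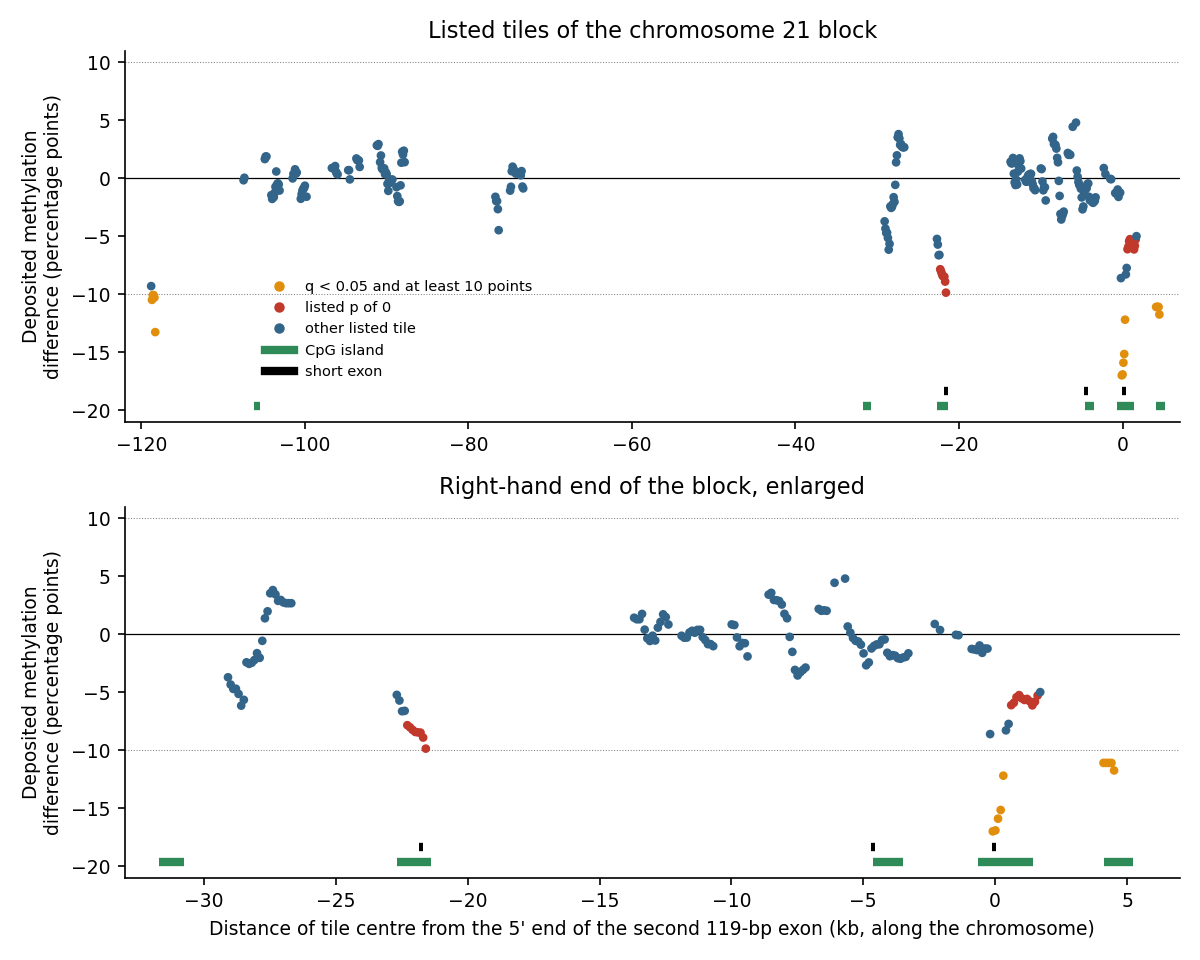
Deposited methylation difference (y axis, percentage points) of the 248 tiles against the distance of the tile centre from the 5′ end of the second 119-bp exon (x axis, kb), for the whole block and enlarged for its right-hand end. Orange points are the 15 counted tiles, red points the 19 tiles with a listed p of 0, blue points the others, and bars mark CpG islands and short exons. Large negative values sit at the left-hand edge and around the islands on the right, and positive values do not exceed 4.80 percentage points.

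The block holds 3 exons of about the same short length. Each is given in the table as exon rank 1 of a transcript with no gene ID. The first, of ENSBTAT00000077061, runs from 33002799 to 33002917 on the plus strand and is 119 bp long. The second of that length, of ENSBTAT00000080508, runs from 33024523 to 33024641 on the minus strand. Between them lies an exon of 115 bp, of ENSBTAT00000082925, from 33019917 to 33020031 on the minus strand, whose start is 4606 bp from that of the second 119-bp exon.

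The table gives these transcripts no name. A RefSeq gene table of another assembly, ARS-UCD2.0, was used for names, lengths and order only. It lists 2 genes of the rRNA class on chromosome 21, LOC112443250 and LOC112443340, each 119 bp long. Their starts are 21724 bp apart, the same distance as between the starts of the 119-bp exons in the deposited table. Of 14 rRNA genes outside the mitochondrial genome in the RefSeq table, 10 have this length. No identifier ties these genes to the exons, so the match rests on chromosome, length and spacing. In RefSeq order the pair has 3 protein-coding genes between its members, all listed under LOC symbols. A pseudogene of 119 bp, LOC112443351, comes next.

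At the first 119-bp exon, a locus of 12 tiles from 33001701 to 33003300 was negative throughout, between -9.86 and -5.22 percentage points by the authors' deposited table. It overlaps a CpG island of 1323 bp, from 33001944 to 33003266, that contains the exon. The difference was listed at -5.22 percentage points in the leftmost tile, and at -8.46 to -8.90 in the 3 tiles that hold the whole exon, by the authors' deposited table. Its largest value lay in the last tile, from 33002801 to 33003300, at -9.86 percentage points with a listed p of 0 by the authors' deposited table. That tile was the largest member below the minimum of 10 percentage points. The smallest counted member, from 32905801 to 32906300, stood just above it at -10.1 percentage points (q = 3.52e-27) by the authors' deposited table. No tile at the first 119-bp exon was counted, although 8 of the 12 had a listed p of 0.

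At the second 119-bp exon the differences were larger. The 4 tiles that hold the whole exon, between 33024201 and 33025000, ran from -17.0 to -8.60 percentage points by the authors' deposited table. The tile from 33024301 to 33024800 had the largest negative value of the window, at -17.0 percentage points (q = 3.92e-157) by the authors' deposited table, and it ranked 12 by size among all 7290 tiles. Counted tiles here were the 5 that start from 33024301 to 33024701, at -17.0, -16.9, -15.9, -15.2 and -12.2 percentage points by the authors' deposited table. The tile starting 100 bp to the left of them was listed at -8.60 percentage points, and the next one to the left at -1.23, by the authors' deposited table. These changes of 8.39 and 7.37 percentage points were the 2 steepest among 5597 pairs of listed tiles 100 bp apart, whose median change was 0.293. The median over 217 such pairs in the window was 0.278. To the right of the exon the difference shrank more slowly, to -7.73 percentage points from 33024901 to 33025400 by the authors' deposited table. That tile had the smallest deposited q above 0 in the window, 7.19e-266.

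The 115-bp exon between them differed little. Its 4 containing tiles, from 33019601 to 33020400, lay between -2.43 and -0.873 percentage points by the authors' deposited table. All 6 tiles that overlap it were negative, with a median of -1.11 percentage points. The medians over overlapping tiles were -8.47 percentage points at the first 119-bp exon and -15.5 at the second. Values at the 115-bp exon did not overlap those at the first 119-bp exon, whereas at the second the outermost of its 6 overlapping tiles, at -1.23 percentage points by the authors' deposited table, lay within the range of the 115-bp exon.

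Read in the direction of each transcript, tiles on the upstream side of the 119-bp exons had overlapping values. With centres 250 to 1000 bp upstream of the 5′ end, 6 tiles of the first exon had a median of -6.62 percentage points (range -8.02 to -5.22). The second had 7 such tiles, with a median of -6.11 percentage points (range -12.2 to -5.25). The 7 tiles at this distance from the 115-bp exon had a median of -1.80 percentage points. From 1000 to 2000 bp upstream, the second 119-bp exon had 8 tiles with a median of -5.62 percentage points, the 115-bp exon had 4 with a median of -1.98, and no tile was listed for the first. With centres within 250 bp of the 5′ end, the medians over 5 tiles each were -8.46 percentage points at the first 119-bp exon (range -8.90 to -8.24) and -15.9 at the second (range -17.0 to -8.60), so that the ranges overlap at their edge. With centres 250 to 1000 bp on the downstream side, 7 tiles of the second 119-bp exon lay between -1.60 and -0.965 percentage points by the authors' deposited table. The 8 tiles of the 115-bp exon there ran from -2.67 to 0.673, and the only tile of the first 119-bp exon was at -9.86, by the authors' deposited table.

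**Figure D2:**
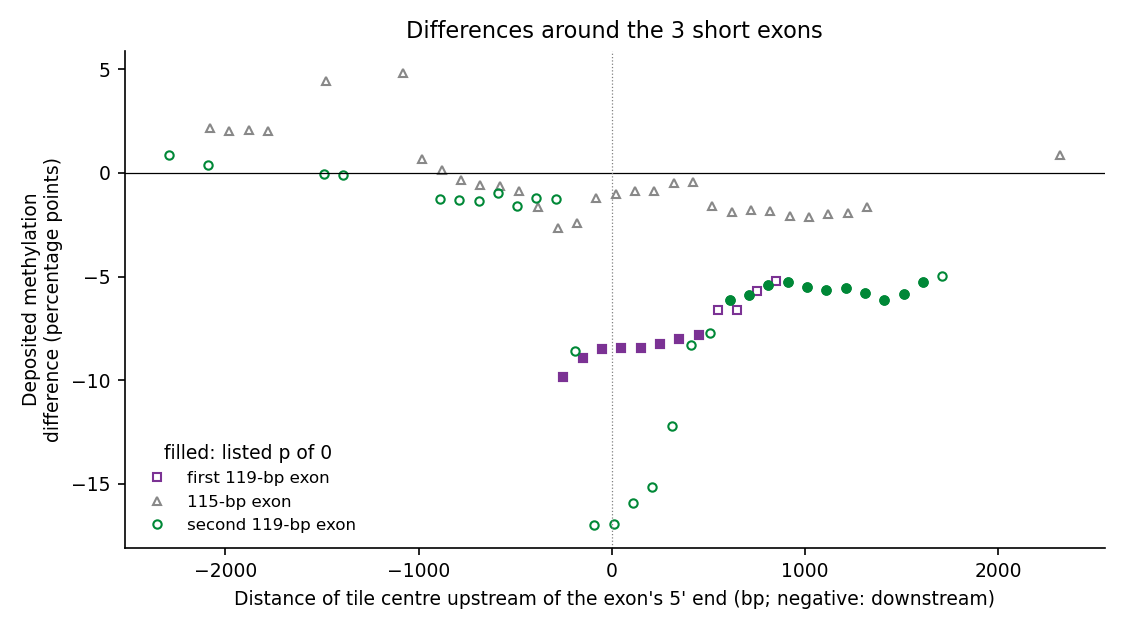
Deposited methylation difference (y axis, percentage points) of tiles within 2500 bp of each of the 3 short exons, against the distance of the tile centre upstream of the exon's 5′ end (x axis, bp). Filled symbols have a listed p of 0. The values of the 119-bp exons overlap upstream, the second reaches -17.0 percentage points at its 5′ end, and the 115-bp exon lies higher at both places.

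The run of tiles with a listed p of 0 was in 2 pieces, both at the 119-bp exons. Such tiles numbered 19 in the window, against 0.370% of all listed tiles, or 27 in all. The other 8 lay on chromosome 2 from 121572201 to 121573600, with positive differences of 1.47 to 3.25 percentage points by the authors' deposited table. In the window the first piece held 8 tiles from 33002101 to 33003300, at -9.86 to -7.84 percentage points by the authors' deposited table. Their centres lay from 251.5 bp downstream to 448.5 bp upstream of the 5′ end of the first 119-bp exon. The second piece held 11 tiles from 33025001 to 33026500, at -6.13 to -5.25 percentage points by the authors' deposited table. Their centres lay 609.5 to 1610 bp upstream of the second 119-bp exon, so that the exon and the largest differences were outside it. All 19 were negative and 0 were counted, because each was smaller than 10 percentage points.

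The order of the p-values was therefore not the order of the differences. The smallest p above 0 that the authors' deposited table lists was 3.11e-318. Dividing the size of a difference by the normal quantile of its two-sided p gives the standard error that the pair would imply under a normal test. It is a description only, because the authors' test is not stated and it need not reflect differences between bulls. Over the 229 members with a p above 0 it ranged from 0.151 to 1.54 percentage points, with a median of 0.434 against 0.498 for the whole table. For the 19 tiles with a listed p of 0, the smallest p above 0 gives an upper limit of 0.138 to 0.259 percentage points. The tile with -17.0 percentage points had an implied standard error of 0.635. The counted tiles at the left-hand edge belong to a locus with a median of 0.999, among the least precise of the window. The reads behind each tile are unknown.

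**Figure D3:**
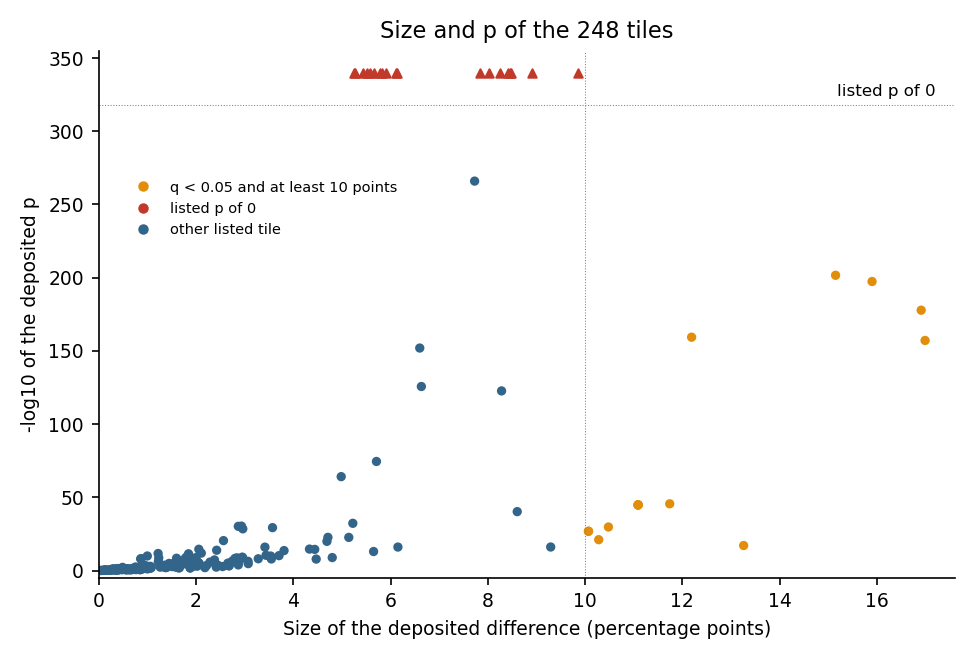
Minus log10 of the deposited p (y axis) against the size of the deposited difference (x axis, percentage points) for the 248 tiles. Triangles above the dotted line are the 19 tiles with a listed p of 0, drawn at an arbitrary height. They span 5.25 to 9.86 percentage points, and the 15 counted tiles to the right of 10 percentage points have p-values above 0.

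Tiles on CpG islands of the block all had the same sign, and tiles off them were split. The table names 7 islands as closest feature of a member, and 4 of them are overlapped by member tiles. Over these 4, all 59 overlapping tiles were negative with a q under 0.05, 10 were counted and the median was -5.66 percentage points. Of the 189 tiles off the islands, 95 were negative, 135 had a q under 0.05 and 5 were counted. Their median was -0.00695 percentage points and their median size 1.08. Over all listed tiles, 71.8% had a q under 0.05 and 2.78% were counted. The member tiles are not independent, since those on one island share cytosines. All 19 tiles with a listed p of 0, for which the stretch was chosen, are among the 59. The contrasts of island tiles given here are therefore partly set by that choice and were not tested. Taking only tiles whose named closest feature is an island that they overlap, the window had 34 tiles, all negative, with a median of -5.55 percentage points. The rest of the table had 1119 such tiles, of which 56.0% were negative, with a median of -0.0915 percentage points. The median size was 5.55 percentage points in the window and 0.445 in the rest, where 58.5% had a q under 0.05. Counted tiles were 5 of the 34 in the window and 4 of the 1119 in the rest. All 5 overlap the same island, of 1120 bp, and 4 of them have the same difference and p.

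The 4 islands differed among themselves. The island of 1323 bp that contains the first 119-bp exon, with a ratio of observed to expected CpG of 0.77 in the annotation, had a median of -8.13 percentage points over 12 tiles. From 33020005 to 33021148, an island of 1144 bp (ratio 0.74) overlaps one end of the 115-bp exon. It had a median of -1.72 over 16 tiles, none beyond -2.43 percentage points by the authors' deposited table. The longest of the 4, at 2071 bp from 33023989 to 33026059 (ratio 0.78), contains the second 119-bp exon. Its 26 tiles had a median of -5.72 percentage points and the widest range, from -17.0 to -0.965 by the authors' deposited table. The last island, of 1120 bp from 33028755 to 33029874 (ratio 0.78), had 5 overlapping tiles, all counted. They were listed at -11.1 percentage points in 4 tiles and at -11.7 (q = 1.00e-45) in the tile from 33028901 to 33029400, by the authors' deposited table. The 4 tiles with the same difference also have the same p and overlap one another. No tile of the last island came as near to 0 as the tiles of the island at the 115-bp exon.

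**Figure D4:**
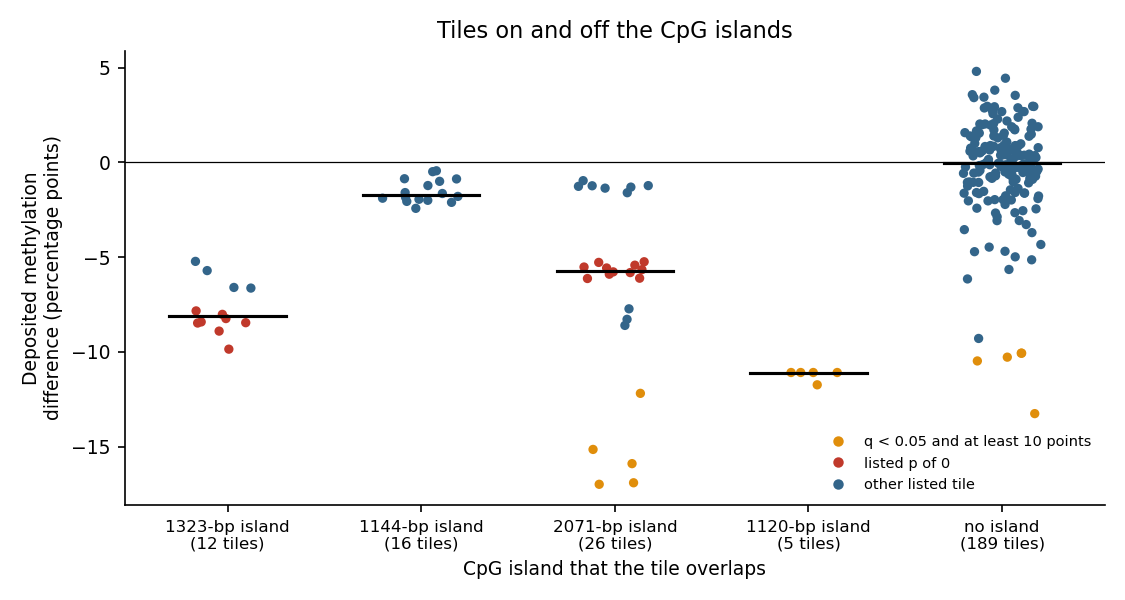
Deposited methylation difference (y axis, percentage points) of tiles that overlap each of the 4 CpG islands, ordered along the chromosome, and of the 189 tiles off them. Horizontal bars are medians, -8.13, -1.72, -5.72 and -11.1 for the islands and -0.00695 off them. All 59 island tiles lie below 0, and the tiles off the islands lie on both sides of it.

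At the left-hand edge of the block, a locus of 6 tiles from 32905601 to 32906600 was also strongly negative. Its nearest feature is a long CpG island of 7232 bp, from 32894042 to 32901273, with a ratio of observed to expected CpG of 0.89. The gap to it is 4328 to 4828 bp, and the tiles are classed as downstream. By the authors' deposited table they stood at -9.29, -10.5, -10.1, -10.1, -10.3 and -13.3 percentage points from left to right, and all but the first were counted. The largest, from 32906101 to 32906600, had a q of 1.58e-17 by the authors' deposited table. The next locus lay 10300 bp to the right and held values of -0.167 and 0.0484 percentage points, neither with a q under 0.05, by the authors' deposited table.

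Positive differences lay in intergenic DNA and flanks, in short stretches beside negative ones. Within loci the sign changed often, giving 20 stretches of negative and 17 of positive tiles. Among member tiles exactly 500 bp apart, which share no base, 91 of 139 pairs (65.5%) had the same sign, against 81.6% of 2382 pairs in the whole table. The share was also low in the rest of chromosome 21, at 62.1% of 66 pairs, and in a dense block on chromosome 18, at 66.4% of 134. A locus from 32995301 to 32998200 went from -6.15 to 3.81 percentage points by the authors' deposited table, with 14 negative tiles on its left and 11 positive ones on its right. The tile with the largest positive difference, from 33018701 to 33019200, was listed at 4.80 percentage points (q = 1.77e-09) by the authors' deposited table, 717 bp from the 115-bp exon. Its right-hand neighbour, 100 bp on, had 0.673 in the same deposited table. The smallest q of a positive tile, 1.24e-30, belonged to 33016101 to 33016600, at 2.94 percentage points by the authors' deposited table. It sits in a positive stretch of 8 tiles from 33015801 to 33017000, all with a q under 0.05. A negative stretch of 7 tiles, which reaches -3.55 percentage points by the authors' deposited table, adjoins it.

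Between 32916901 and 32951600 the members had no gene feature as closest feature, and their differences were small. These 90 tiles have an island of 798 bp, from 32918410 to 32919207, as closest feature, at gaps of 294 to 31894 bp, and none overlaps it. They ran from -4.47 to 2.95 percentage points by the authors' deposited table, 42 of them negative, with a median of 0.350. Of the 90 tiles, 58 had a q under 0.05, a lower share than the 71.8% of all listed tiles. One locus of 14 tiles, from 32927701 to 32931600, was positive in 13.

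The only gene ID among the members was ENSBTAG00000024311, a protein-coding gene with no name in the table and no match in the RefSeq table. It was the closest gene of 27 tiles, all classed as downstream, at 2548 to 5548 bp from its coding sequence. Their differences ran from -1.02 to 1.75 percentage points by the authors' deposited table, 12 negative. Of the 27 tiles, 17 had a q under 0.05, a lower share than the 71.8% of all listed tiles. None of the 27 was counted. The large differences of the block thus lie nearest to islands and short exons and not to a gene with an ID. In RefSeq order, the rRNA pair lies between LINGO1, a transmembrane protein of neurons, and ODF3L1, of a family named for the outer dense fibres of the sperm tail. CSPG4, a cell surface proteoglycan, lies beyond ODF3L1. No member tile is annotated to any of these genes.

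By deposited class, 153 members were downstream, 55 distal intergenic, 24 within a feature and 16 in the promoter class. All 24 tiles within a feature and all 16 of the promoter class were negative, with medians of -5.72 and -6.01 percentage points. Those of the promoter class have one of the 3 short exons as closest feature, and at the first 119-bp exon they overlap it. The downstream class held 11 of the 15 counted tiles, but its name hides overlap. A tile was classed as within a feature where its first base lay inside the feature, which held for all 248 members. Of the 153 tiles classed as downstream, 20 overlap the feature, 6 of the counted ones among them.

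Of 3 other dense blocks of the table, that on chromosome 18 was the closest in size of difference. On chromosome 14, a block from 13520201 to 13839000 had 49 of its 448 tiles counted (10.9%), 97.1% were negative and the median size was 5.28 percentage points, with 0 tiles at a listed p of 0. Near the start of chromosome 1, 80.8% of 584 tiles were negative, but only 4 of the 14 counted ones. A block on chromosome 18, from 57111101 to 57346700, had 6 of 303 counted, 73.3% negative and a median size of 1.18 percentage points, against 1.58 in the chromosome 21 window and 2.20 in the chromosome 1 block. Neither of these held a tile with a listed p of 0. The chromosome 21 block had the lowest share of negative tiles of the 4, and its counted tiles were all negative, as they were on chromosomes 14 and 18. No test of these differences was made. The remaining 166 tiles of chromosome 21 had 0 counted, with differences from -7.92 to 6.86 percentage points and a median size of 0.955.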

How the data were processed

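Sperm DNA of 12 samples, 6 low BFI and 6 high BFI, was profiled by enzymatic methylation sequencing. Tools named in the submitters' processing notes are methylKit, Bismark and Trimmomatic, without versions or settings. Per the file headers, the authors deposited the q-value, p-value and methylation difference of each tile, the last read here as percentage points. Their test, coverage minimum, rule of listing and direction of subtraction are not given in the sources used here.

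Rows were split at the first 13 commas, because annotations hold commas. No test between groups was run. Loci joined tiles with at most 1000 bp between them. The gap to a feature runs between nearest edges. The text names every gene ID among the members, the largest difference and smallest q above 0 of each sign, and the largest tile of each locus with counted tiles. Other tiles, the exons and islands were chosen after their values were seen. The members and lists were chosen with earlier results of these data known. The calculation of the implied standard error was run on data simulated under the same normal test. That checks the arithmetic only, and not whether the value describes the authors' test. Values were computed with pandas 2.3.3, SciPy 1.17.1 and NumPy 2.4.6 under Python 3.11.15, and drawn with matplotlib 3.10.9.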

Additional observations from a re-analysis of the deposited data

How the results depend on the processing

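The choice of minimum difference set the number of counted tiles. In place of 15, it was 45 at a minimum of 5 percentage points (18.1% of members against 15.4% of all listed tiles) and 0 at 20 (8 of all 7290 tiles, 0.11%). Keeping only the 61 members that share no base left 3 counted tiles, 1 for each locus with any (4.92%, against 2.32% of 2153 such tiles in the table), 43 tiles with a q under 0.05 and 5 with a listed p of 0; fewer tiles enter by construction. Joining loci at 0 bp gave 20 loci and at 5000 bp 5, in place of 11. The other 12 of 19 alternatives, 2 of which were chosen after seeing the data, left counts within 1.5 times the main value and other values within their 95% interval. Among them, leaving out tiles that repeat the tile before lowered the counted tiles from 15 to 11. The share of negative tiles lay between 59.0% and 64.9% throughout, against a 95% Wilson interval of 55.9% to 67.9% that covers counting error only and takes tiles as independent. The alternative without overlap for the p of 0 was also added after seeing the data. No paired analysis was possible because the table has no column for any sample, and for the same reason no sample could be left out. Base composition was not run, since no genome was used here. Depth is unknown, so it cannot be said which differences it limits.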

Other observations

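Deposited q-values lay below the p-values in 160 of the 248 members, as in 5007 of all 7290 tiles. As a result, 17 of the 248 members had a q under 0.05 with a p of at least 0.05, as did 441 of all 7290 tiles. None of these 17 was counted. A further 11 members repeat the p and the difference of the tile 100 bp before them, as do 232 of all 7290 tiles.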
